A study of Homo sapiens with 9 samples.

Results

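The integrated stress response and the unfolded protein response were followed at the RNA level through 10 genes, ATF4, DDIT3, DDIT4, TRIB3, ASNS, CHAC1, HSPA5, XBP1, PPP1R15A and HERPUD1. They were chosen by symbol as standard readouts of these pathways, with earlier results of these data known. All 10 were found among the 58735 genes of the table, of which 19951 are protein-coding. The cells were KHM-5M, a human thyroid cancer line, kept for 24 h with the vehicle DMSO, with 0.3 μM YK-4-279 or with 1 μM YK-4-279, a small molecule that the study used as an inhibitor of ETS transcription factors. Poly-A RNA was sequenced in 9 libraries, 3 in each of the 3 groups, and all groups were 1 cell line at 1 time. No label said whether the 3 libraries of a group came from separate cultures, and the study's methods speak of biological replicates but of fewer per condition than were deposited, so the p-values measure the spread between these libraries, which may be technical. RNA was extracted from bulk cells, so fewer cells of a kind and less RNA per cell cannot be told apart.

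Cells answer amino acid shortage, unfolded protein in the endoplasmic reticulum (ER), heme shortage or viral RNA by phosphorylating the translation factor eIF2. Most translation slows while the mRNA of ATF4, a transcription factor, is translated better, so the ATF4 mRNA level shows only part of its activity. ATF4 turns on genes for amino acid supply (ASNS), for further regulation (DDIT3, TRIB3, DDIT4) and for glutathione breakdown (CHAC1), and PPP1R15A closes the loop by bringing a phosphatase to eIF2. In the ER the sensors IRE1 and ATF6 act beside the eIF2 kinase PERK: IRE1 splices the XBP1 mRNA, and ATF6 and spliced XBP1 turn on chaperones such as HSPA5 and degradation factors such as HERPUD1. A count per gene does not separate spliced from unspliced XBP1.

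The promoters were searched for letters that ATF4 and the ER stress factors are known to bind. The C/EBP-ATF response element was searched as TGATGNAA, and the ER stress response element as CCAAT and CCACG with 9 bases between, on both strands of the 250 bases before and 50 bases after each start site in RefSeq (GRCh38.p14). The 10 genes had 16 such windows. The first motif lay in 3 of them, those of ASNS, CHAC1 and HERPUD1, against 3.62% of all 35116 RefSeq windows, and the second in 2, those of HSPA5 and XBP1, against 0.0769%. The motif is in capitals with 20 bases on each side, read along the gene's strand; in CHAC1 and HERPUD1 the capitals are the motif's reverse strand. The letters were not found in the windows of ATF4, DDIT3, DDIT4, TRIB3 and PPP1R15A, and a match describes the sequence only. Only these exact letters were searched, so variants of either element, or sites outside the windows, would be missed.
ASNS, chr7:97872449-97872496, minus strand: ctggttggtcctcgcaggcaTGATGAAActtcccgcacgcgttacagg
CHAC1, chr15:40953242-40953289, plus strand: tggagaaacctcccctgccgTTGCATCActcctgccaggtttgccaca
HERPUD1, chr16:56931946-56931993, plus strand: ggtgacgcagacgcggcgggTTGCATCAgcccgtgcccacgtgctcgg
HSPA5, chr9:125241371-125241429, minus strand: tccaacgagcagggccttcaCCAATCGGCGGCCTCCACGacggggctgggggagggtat
XBP1, chr22:28800583-28800641, minus strand: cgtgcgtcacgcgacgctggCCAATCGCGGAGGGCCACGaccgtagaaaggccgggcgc

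Library totals lay between 16903251 and 18238884 counts, so 3 counts, the upper limit that a count of 0 allows, stood for 0.164 to 0.177 CPM, the count scaled to library size, and intervals and limits of this kind cover counting error only. Each pair of replicates differed by more than counting noise, so no library was taken for a repeat of another. PAX8 (22.8 FPKM in DMSO, a level scaled to gene length and library size) and the keratins KRT8 and KRT18 were expressed, but most genes of the differentiated thyroid follicular cell, TG, TSHR, SLC5A5, NKX2-1 and DIO1, had 0 to 10 counts in every library. CDH1 had 0 to 5 counts, and the leukocyte genes PTPRC and CD3E had 0 or 1. PECAM1 and COL3A1 had 0 to 6 counts, but VWF, also an endothelial gene, had 36 to 77. The thyroid genes HHEX (231 to 320 counts) and FOXE1 (7 to 34 counts) were detected in every library. So were the epithelial genes EPCAM (89 to 126 counts) and KRT19 (66 to 104 counts). The fibroblast genes COL1A1 (log2 fold change -0.41, adjusted p = 0.0132) and PDGFRB (-0.48, adjusted p = 0.000773) were lower at 1 μM and CD14, at 8 to 37 counts, was higher (1.07, adjusted p = 0.0484). The summed level of 8 leukocyte, endothelial and fibroblast genes ran from 435 to 616 CPM in DMSO, 384 to 563 CPM at 0.3 μM and 380 to 436 CPM at 1 μM, and none of these genes was at 0 in all 9 libraries. Most of this sum was COL1A1, at a mean of 471 CPM in DMSO and 361 CPM at 1 μM. The part of other cells in the results below was not tested.

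One library stood apart for these genes. Replicate 3 of 0.3 μM had the highest level of the 9 libraries for 10 of the 10 genes, while it was highest for 14.8% of the 16124 genes ranked, and no other library was highest for any of the 10. Its depth (17551482 counts) and mitochondrial share (3.19%) lay inside the range of the other 8 libraries, and its departure from its own group was not tested for a cause. The fitted changes at 0.3 μM are therefore given with and without it.

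In DMSO the 10 genes spanned a wide range of levels per gene length. HSPA5, the main chaperone of the ER lumen, was the most abundant at 302 ± 12.8 FPKM (mean ± SD, n = 3), rank 81 among the protein-coding genes. ATF4 followed at 167 ± 2.64 FPKM, then XBP1 at 47.6 ± 2.36 FPKM and PPP1R15A at 42.2 ± 1.18 FPKM. DDIT4 (19.3 ± 1.10 FPKM) and TRIB3 (18.5 ± 1.52 FPKM) were the only neighbours in this order whose 3 libraries overlapped. HERPUD1 (13.1 ± 1.16 FPKM) and DDIT3 (11.6 ± 0.266 FPKM) came next. CHAC1 (2.65 ± 0.243 FPKM) and ASNS (2.06 ± 0.0407 FPKM, rank 9322) were the least abundant, and ASNS was also the gene with the largest fitted change at 1 μM.

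At 1 μM the ASNS mRNA fell to 0.402 of its DMSO level, ATF4 fell by a smaller amount and TRIB3 rose, while the ER chaperone HSPA5, XBP1 and PPP1R15A differed from DMSO by at most 0.06 on the log2 scale. In all, 3 of the 10 genes passed an adjusted p of 0.05 (edgeR quasi-likelihood test, Benjamini-Hochberg), against 17.6% of the 15617 genes tested. The 1 that rose compares with 7.67% of all genes and the 2 that fell with 9.95%. The libraries of the groups did not overlap for 5 of the 10 genes, against 37.4% of all genes. With 3 libraries against 3, a two-sided exact permutation test of 1 gene cannot give a p below 0.1, so the calls rest on the fit across all genes.

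**Figure D1:**
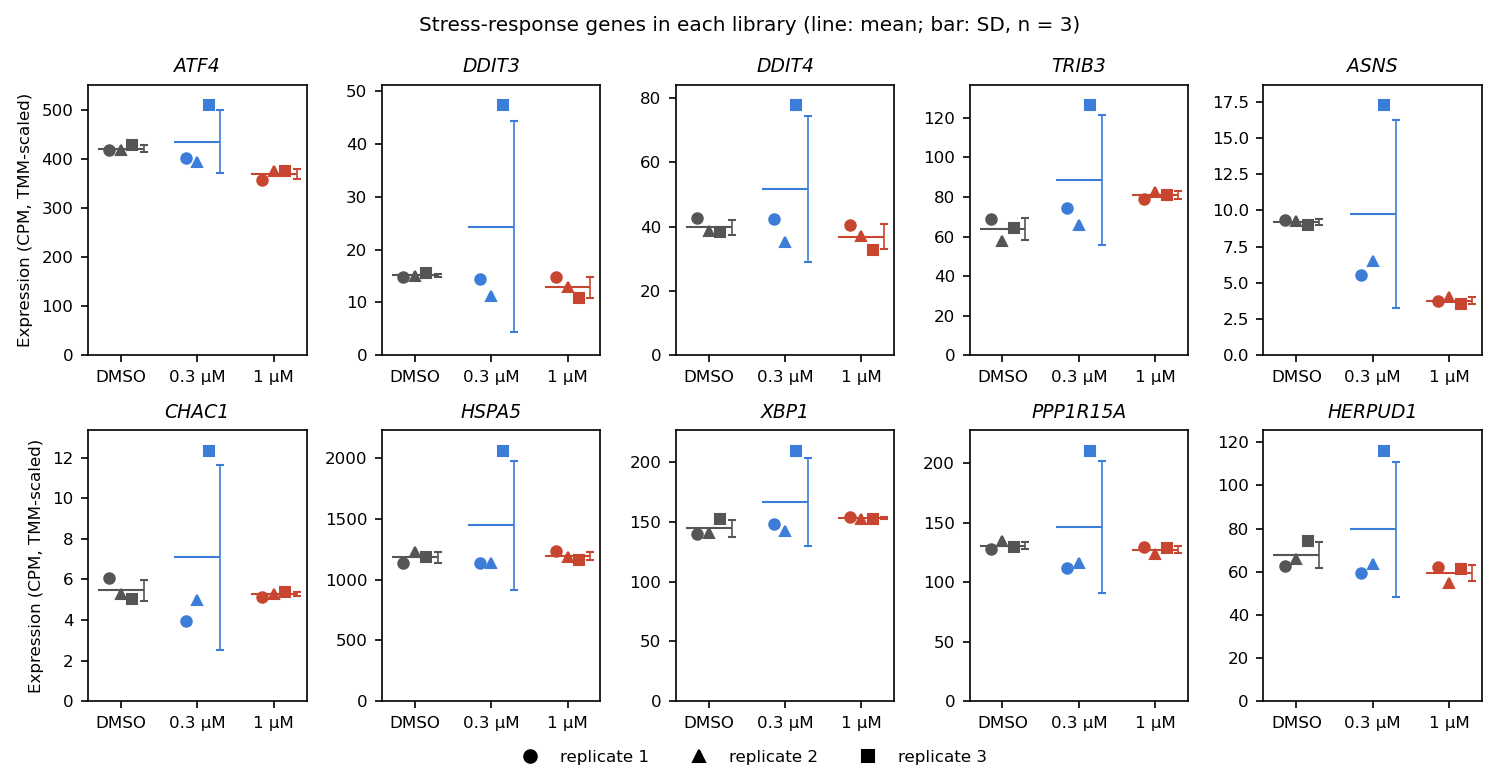
Level of each of the 10 genes in each library in TMM-scaled CPM on a linear axis from 0, by group, with the replicate number as the symbol, a line for the mean and a bar for the SD (n = 3). Replicate 3 of 0.3 μM is the highest point in every panel, and the ASNS libraries at 1 μM, 3.53 to 4.01 CPM, lie below all others.

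ASNS makes asparagine from aspartate and glutamine. Its level was 9.36, 9.25 and 8.99 CPM in the DMSO libraries and 3.73, 4.01 and 3.53 CPM at 1 μM, from 161, 168 and 153 counts and from 68, 69 and 59 counts. The groups lay far apart relative to the spread within each. The fitted log2 fold change was -1.32 (SE 0.14, edgeR adjusted p = 5.35e-05), a fitted change of -59.8%, and ASNS was the only one of the 10 genes past 1.5-fold. In the 0.3 μM libraries ASNS was at 5.53, 6.49 and 17.3 CPM. Replicates 1 and 2 sat between the DMSO and 1 μM libraries, whereas replicate 3 exceeded every DMSO library. ASNS (GRCh38, chr7:97852118-97872542, minus strand) has a pseudogene copy, ASNSP1, that could share its reads, with 80 to 230 counts per library. The copy read 6.86, 8.42 and 7.23 CPM in DMSO and 5.26, 4.65 and 5.56 CPM at 1 μM, and the summed level of both was 16.2, 17.7 and 16.2 CPM in DMSO against 8.99, 8.66 and 9.09 CPM at 1 μM. The groups did not overlap for the sum either. A processed transcript, AC079781.5, overlaps ASNS on the same strand by 20425 bases and had 0 to 3 counts per library. How reads falling in both were counted is not given in the sources used here. The ASNS level and its rank in DMSO are uncertain to that extent.

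ATF4, the transcription factor itself (chr22:39519695-39522685), was at 418, 417 and 429 CPM in DMSO and at 358, 376 and 375 CPM at 1 μM. Every treated library was lower than every DMSO library. The log2 fold change was -0.22 (SE 0.05, edgeR adjusted p = 0.0106). The call was lost without DMSO replicate 3 (edgeR adjusted p = 0.0616) and without 1 μM replicate 1 (adjusted p = 0.0593). The pseudogenes of ATF4 had at most 13 counts in any library.

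TRIB3, a pseudokinase that ATF4 and DDIT3 induce and that binds ATF4, was the member that rose. It was at 68.9, 58.0 and 64.3 CPM in DMSO and 78.8, 82.7 and 81.2 CPM at 1 μM, with no overlap. The log2 fold change was 0.32 (SE 0.07, edgeR adjusted p = 0.00678). A fit on all 9 libraries, whose spread includes replicate 3 of 0.3 μM, no longer called TRIB3 (adjusted p = 0.163) or ATF4 (adjusted p = 0.0677) by edgeR.

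The other ATF4 targets among the 10 did not pass the test at 1 μM. DDIT3 encodes CHOP, a transcription factor linked to death after long ER stress, and read 14.9, 15.03 and 15.5 CPM in DMSO and 14.9, 12.8 and 10.8 CPM at 1 μM. Its treated libraries were lower, but the nearest of both groups lay at 14.9 CPM, and its log2 fold change was -0.26 (SE 0.12, edgeR adjusted p = 0.147). DDIT4, also called REDD1, inhibits mTORC1, and its 42.5, 38.5 and 38.3 CPM in DMSO overlapped the 40.6, 37.2 and 32.8 CPM at 1 μM (log2 fold change -0.14, edgeR adjusted p = 0.311). CHAC1, which degrades glutathione, read 6.04, 5.28 and 5.06 CPM in DMSO and 5.15, 5.29 and 5.38 CPM at 1 μM. The log2 fold change of CHAC1, -0.08, was smaller than its SE of 0.16. DDIT3 (chr12:57516588-57521737) overlaps MARS by 982 bases and MBD6 by 1028 bases on the opposite strand. MARS had 3513 to 3888 counts per library, and whether the counting used strand is not settled by the sources used here. AC022506.1, annotated as protein-coding on the same strand, overlaps DDIT3 by 2769 bases and had 0 counts in every library. How reads falling in both were counted is not given either, so the DDIT3 counts are uncertain to that extent.

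None of the ER genes and PPP1R15A passed the test at 1 μM. HSPA5 read 1135, 1225 and 1189.9 CPM in DMSO and 1232, 1186 and 1163.5 CPM at 1 μM, and its log2 fold change was -0.01 (SE 0.05, edgeR adjusted p = 0.890). XBP1, the transcription factor downstream of IRE1, read 140.1, 141 and 153 CPM in DMSO and 154, 153 and 152 CPM at 1 μM (log2 fold change 0.06, SE 0.06, edgeR adjusted p = 0.523). These groups overlapped. HERPUD1, a membrane protein of ER-associated degradation, was at 62.8, 65.9 and 74.2 CPM in DMSO and 62.1, 55.0 and 61.1 CPM at 1 μM. Its treated libraries were all lower, but the log2 fold change of -0.21 (SE 0.08) missed the threshold (edgeR adjusted p = 0.0663), and passed it without DMSO replicate 1 (adjusted p = 0.0357). PPP1R15A, also called GADD34, read 128, 134 and 130.0 CPM in DMSO and 129, 124 and 129 CPM at 1 μM (log2 fold change -0.06, SE 0.06, edgeR adjusted p = 0.466).

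At 0.3 μM the fitted log2 fold changes of all 10 genes were above 0, from 0.04 for ATF4 to 0.67 for DDIT3, yet no gene passed the test, and the replicates within the group differed more than the groups did. With edgeR 0 of the 10 genes were called, as were 0% of the 15762 genes tested. At an unadjusted p under 0.05 there were 594 genes, among them 1 of the 10, TRIB3, and DESeq2 called 1 gene in all and none of the 10. Without the filter on low counts edgeR called 3 of the 10, DDIT3, HSPA5 and TRIB3, against 0.0926% of the 32387 genes then tested. The libraries of 0.3 μM and DMSO overlapped for each of the 10 genes, against 8.47% of all genes with no overlap.

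**Figure D2:**
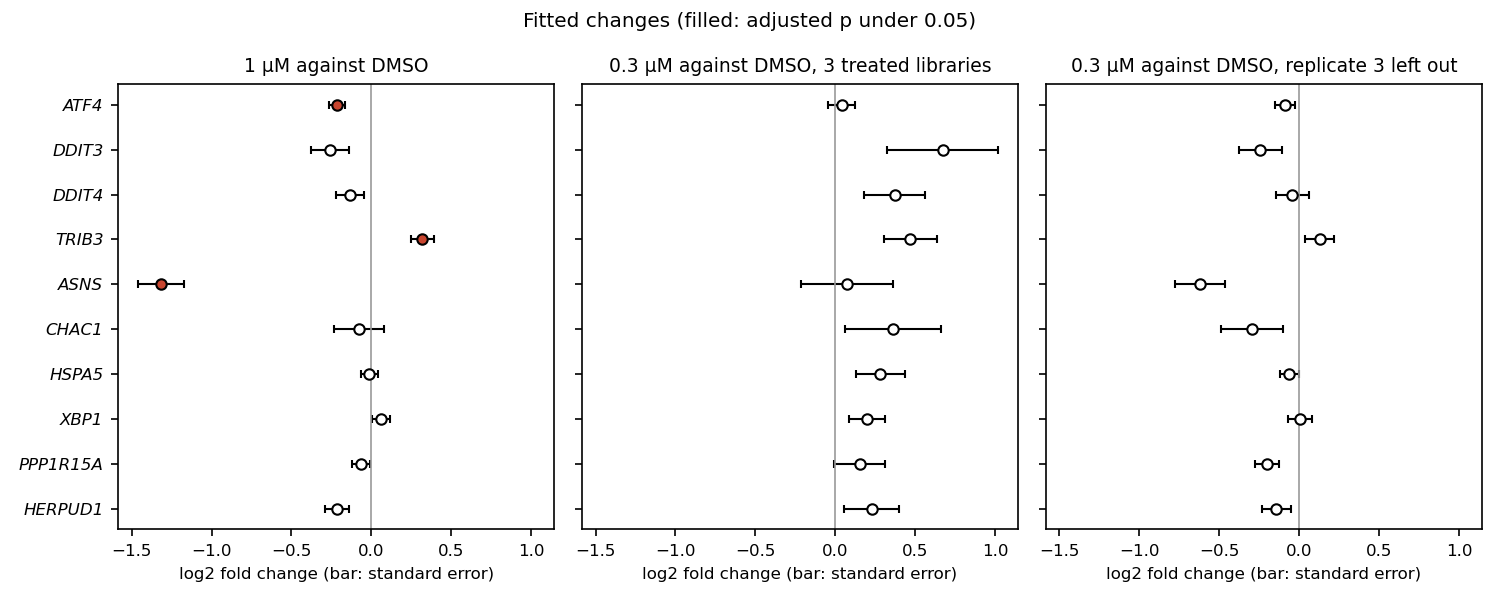
Fitted log2 fold change of each gene (edgeR, bar: standard error) for 1 μM against DMSO, for 0.3 μM against DMSO with 3 treated libraries, and for the same with replicate 3 left out. The points are filled where the adjusted p is under 0.05, which holds for ATF4, TRIB3 and ASNS at 1 μM, and 8 of the 10 points of the middle panel move to the other side of 0 in the right panel.

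That direction rested on replicate 3. DDIT3 was at 14.5 and 11.2 CPM in replicates 1 and 2 of 0.3 μM and at 47.3 CPM in replicate 3, 3.68 times their mean. Set against the highest of the other 8 libraries, the DDIT3 excess was 3.05-fold, rank 1 of the 16124 genes. CHAC1 was at 3.95 and 4.99 CPM in replicates 1 and 2 and at 12.3 CPM in replicate 3, 2.04-fold above the highest other library. For ASNS the excess over the highest other library was 1.84-fold and for DDIT4, at 42.5, 35.1 and 77.7 CPM, it was 1.83-fold. These 4 genes, targets of ATF4 in death, glutathione, asparagine and mTORC1 control, were within the first 10 of the 16124 genes by this excess. TRIB3, also a target of ATF4, was only at rank 51, below the ER chaperone HSPA5 at rank 23.

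The ER genes were high in the same library, by less. HSPA5 was at 1140.2 and 1141 CPM in replicates 1 and 2 of 0.3 μM and at 2056 CPM in replicate 3, 1.67-fold above the highest other library, while the other 8 libraries together lay between 1135 and 1232 CPM. PPP1R15A read 112, 116 and 210.2 CPM and HERPUD1 59.3, 63.7 and 116 CPM, both 1.56-fold above the highest other library. TRIB3 read 74.3, 65.6 and 126 CPM (1.53-fold) and XBP1 149, 142 and 209 CPM (1.36-fold). ATF4 was the least raised, at 402, 395 and 509.5 CPM, which is 1.19-fold above the highest other library and rank 349. The excess was thus greatest for DDIT3 and CHAC1 and least for XBP1 and ATF4.

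Without replicate 3, 8 of the 10 fitted changes at 0.3 μM lay below 0. The log2 fold change of ASNS was then -0.62 (SE 0.16, edgeR adjusted p = 1.00), from 0.07 (SE 0.29) with all 3 libraries. PPP1R15A went from 0.15 (SE 0.16) to -0.20 (SE 0.07) and DDIT3 from 0.67 (SE 0.35) to -0.24 (SE 0.13). CHAC1 went from 0.36 to -0.29, DDIT4 from 0.37 to -0.04, HERPUD1 from 0.23 to -0.14 and ATF4 from 0.04 to -0.09. HSPA5 went from 0.28 (SE 0.15) to -0.06 (SE 0.06), XBP1 from 0.20 (SE 0.11) to 0.00 (SE 0.07) and TRIB3 from 0.47 (SE 0.17) to 0.13 (SE 0.09). None of the 10 was called, and 4 of the 16188 genes tested without this library were.

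Between the doses, ASNS was lower at 1 μM than at 0.3 μM, and it was the only one of the 10 genes called, against 12.6% of 15583 genes (5.85% higher and 6.75% lower), and against 11.8% of 15939 genes without replicate 3 of 0.3 μM. Its log2 difference was -1.38 (SE 0.32, edgeR adjusted p = 0.00958), and without replicate 3 of 0.3 μM it was -0.69 (SE 0.19, adjusted p = 0.0221). With DESeq2 the adjusted p was 0.0717 for ASNS and 0.0359 for ATF4, which was then the gene called. Without replicate 1 or replicate 2 of 0.3 μM, edgeR called 4 of the 10, against 9.77% and 7.89% of all genes in those fits. By edgeR ATF4 missed the threshold narrowly (log2 difference -0.24, edgeR adjusted p = 0.05002), and without replicate 3 its difference was -0.12 (adjusted p = 0.174). ASNS and ATF4 were the 2 of the 10 genes whose libraries did not overlap between the doses, against 31.9% of all genes. All 10 differences were below 0 with replicate 3, and 5 of them, TRIB3 (0.20), CHAC1 (0.23), PPP1R15A (0.15), XBP1 (0.06) and HSPA5 (0.05), lay above 0 without it, none past the edgeR threshold. DDIT3 went from -0.92 to -0.01, DDIT4 from -0.50 to -0.09 and HERPUD1 from -0.43 to -0.06. Both doses were compared with the same DMSO libraries.

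The wider pathways were read from 7 lists with 127 genes, of which 125 could be tested at 1 μM against DMSO. Of these, 18 rose and 5 fell (edgeR, Benjamini-Hochberg), 18.4% in all, close to the 17.6% of all genes. The median log2 fold change was 0.03 over the lists and -0.01 over all genes tested. Without DMSO replicate 3 the count was 14, and 10.5% of all genes were called. FGF21, with no counts, and DERL3 were not tested. At 0.3 μM no list gene was called.

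Of the genes of amino acid synthesis and transport that ATF4 controls, 4 of 19 fell and 1 rose at 1 μM, with a median of -0.12. Over all genes 9.95% fell and 7.67% rose. PSAT1, of serine synthesis, was at 161, 178 and 167 CPM in DMSO and 124, 110 and 122 CPM at 1 μM (log2 fold change -0.53, edgeR adjusted p = 0.000123). ALDH1L2 (-0.37, adjusted p = 0.00830) and MTHFD2 (-0.25, adjusted p = 0.0254), both of mitochondrial folate metabolism, and PHGDH (-0.21, adjusted p = 0.0208) also fell by edgeR. SLC7A11, the cystine transporter, rose (0.23, adjusted p = 0.0325).

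Of the ATF4-linked regulators and secreted factors, 3 of 13 rose and none fell at 1 μM, with a median of 0.10. Over all genes 7.67% rose and 9.95% fell. GDF15, a secreted stress hormone, had few counts, 1.22, 0.715 and 1.06 CPM in DMSO, 3.05, 1.94 and 4.26 CPM at 0.3 μM and 4.39, 2.79 and 3.89 CPM at 1 μM. Its treated libraries were all above DMSO at both doses, and the fitted log2 values were 1.86 at 1 μM (SE 0.28, edgeR adjusted p = 0.000607) and 1.61 at 0.3 μM (adjusted p = 0.641), the latter 1.31 without replicate 3 (adjusted p = 1.00). CEBPB, a bZIP partner of ATF4, rose by 0.50 (edgeR adjusted p = 0.000186) and VEGFA by 0.45 (adjusted p = 0.00216). STC2, a secreted glycoprotein, read 218 to 241 CPM in DMSO and 223 to 227 CPM at 1 μM.

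**Figure D3:**
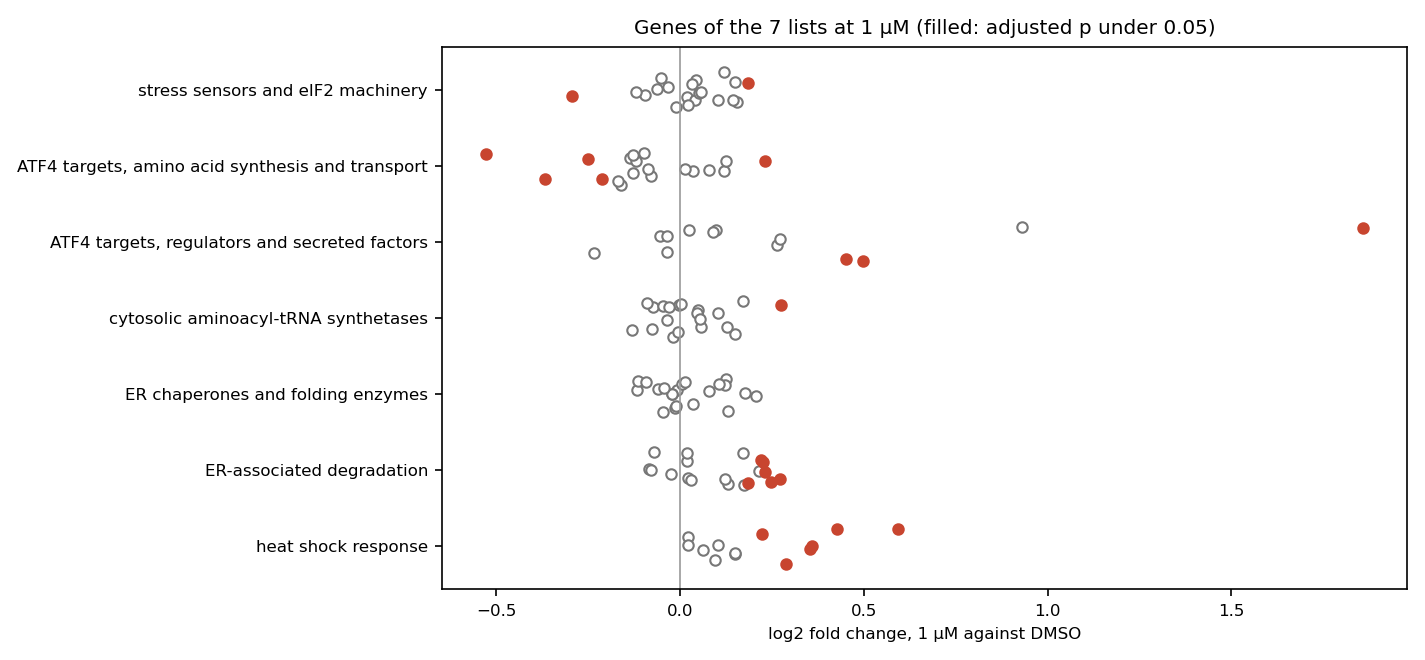
Fitted log2 fold change at 1 μM against DMSO for each gene of the 7 lists, filled where the edgeR adjusted p is under 0.05. The filled points lie mostly below 0 for amino acid genes (4 of 5), at 0 of 21 for ER chaperones, and above 0 for ER-associated degradation and the heat shock response (6 each). Over all genes tested 17.6% were called.

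HSPA5, XBP1 and HERPUD1 belong to the wider machinery of ER folding and degradation. None of the 21 chaperones and folding enzymes passed the edgeR test at 1 μM (median -0.01), against 17.6% of all genes. The list's most abundant gene, CALR, was at 973, 967 and 973 CPM in DMSO and 890.1, 943 and 899 CPM at 1 μM (log2 fold change -0.12, edgeR adjusted p = 0.123). Of the ER-associated degradation genes, 6 of 19 rose and none fell, with a median of 0.13, against 7.67% and 9.95% of all genes. ERLEC1, a lectin, rose by 0.27 (edgeR adjusted p = 0.0170), DERL1 by 0.25 (adjusted p = 0.00975) and EDEM1 by 0.23 (adjusted p = 0.0163), and VCP, the ATPase that extracts proteins from the ER, by 0.19 (adjusted p = 0.0244). HERPUD1 itself was at -0.21 and was not called.

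The remaining lists held few calls except for the cytosolic heat shock response. There 6 of 13 genes rose and none fell at 1 μM (median 0.15). Over all genes 7.67% rose and 9.95% fell, which are the shares to set beside each list of this paragraph. HSPH1 read 156, 166 and 166 CPM in DMSO and 231, 218 and 219 CPM at 1 μM (log2 fold change 0.43, edgeR adjusted p = 0.000201). HSPA1B (0.59, adjusted p = 0.000195) and HSPA1A (0.36, adjusted p = 0.00411) are near-identical copies whose reads could be split between them, so their separate values are uncertain. HSP90AB1, the most abundant of this list, was not called (0.06, adjusted p = 0.409). Among the stress sensors and eIF2 subunits, 1 of 20 rose, EIF2S1 (0.19, adjusted p = 0.0449), and 1 fell, DELE1, which relays mitochondrial stress (-0.29, adjusted p = 0.00350), both by edgeR. EIF2S2, the most abundant of that list, read 284 to 343 CPM in DMSO and 306 to 333 CPM at 1 μM. Of the 20 aminoacyl-tRNA synthetases 1 rose, FARSA (0.28, edgeR adjusted p = 0.0112), and the most abundant, AARS, did not pass the test (-0.07, adjusted p = 0.392).

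The wider lists were also read in replicate 3 of 0.3 μM. That library was the highest of the 9 for 15 of 19 amino acid genes, 7 of 13 regulators and secreted factors, 13 of 21 ER chaperones and 7 of 20 tRNA synthetases. It was also the highest for 5 of 20 sensors, 3 of 19 degradation genes and 1 of 13 heat shock genes. Over all genes ranked the share was 14.8%. Conversely, it was the lowest of the 9 for 7 of the 13 heat shock genes, against 13.9% of all genes, and for none of the amino acid, regulator or chaperone genes. The medians of the log2 ratio to the DMSO mean in that library were 0.84 for the 10 genes, 0.49 for the regulators, 0.27 for the amino acid genes, 0.18 for the chaperones and -0.07 for the heat shock genes, with 0.00 over all genes tested. Examples are SLC7A5, an amino acid transporter, at 217 CPM in that library against at most 138 CPM elsewhere, SESN2, an mTORC1 inhibitor, at 46.0 CPM against at most 30.7 CPM, and DNAJB9, an ER co-chaperone, at 23.1 CPM against at most 17.2 CPM, all named after their values were seen.

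**Figure D4:**
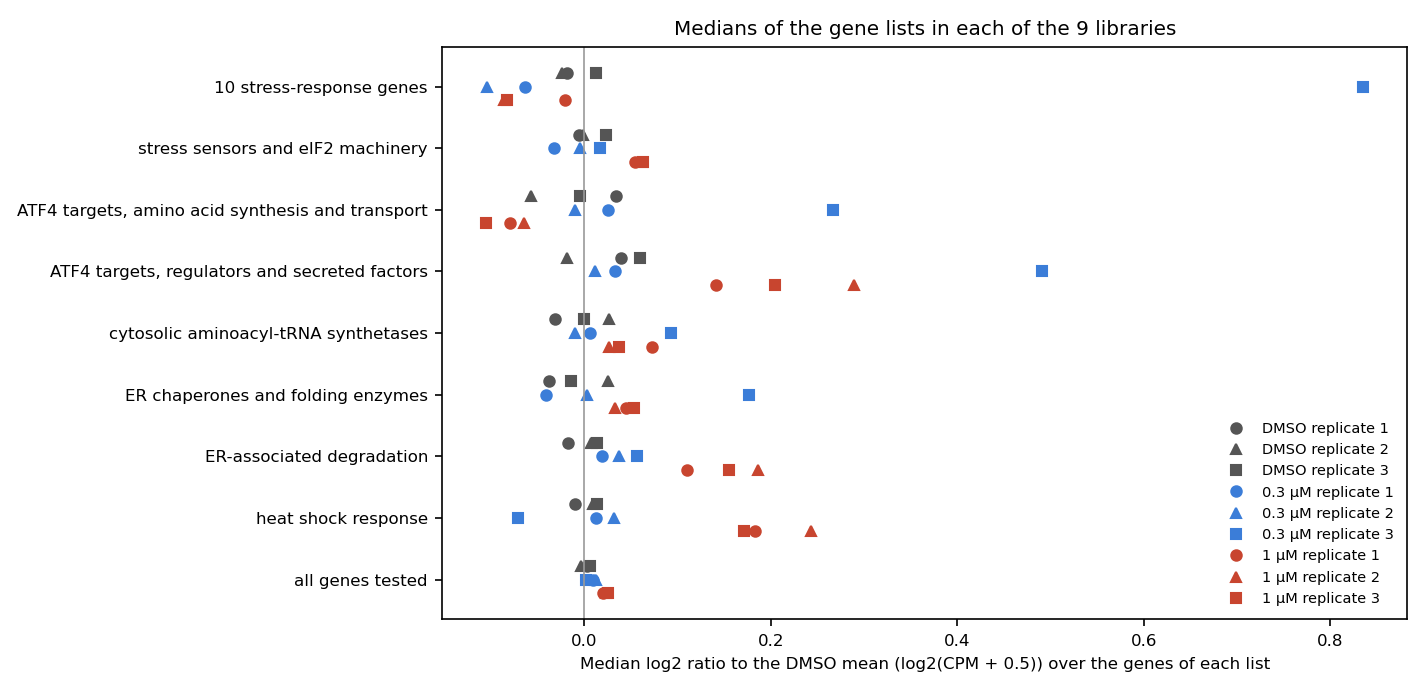
Median over the genes of each list of the log2 ratio to the DMSO mean, on log2(CPM + 0.5), in each of the 9 libraries, with colour for the group and the symbol for the replicate. Replicate 3 of 0.3 μM lies at 0.84 for the 10 genes and at -0.07 for the heat shock response, where the 1 μM libraries lie at 0.17 to 0.24.

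The genes most alike in pattern were sought for HSPA5, DDIT3 and ASNS among 9418 protein-coding genes, by Pearson's r of log2(CPM + 0.5) over the 9 libraries, which share their groups and scaling, as a description with no test. For HSPA5 they were STC2 (r = 0.99), DCAF10 (0.97) and PPP1R15A (0.97), and without replicate 3 of 0.3 μM, over 8 libraries, these r were 0.74, 0.58 and 0.67. For DDIT3 they were DDIT4 (0.98), SLC3A2 (0.97) and ERRFI1 (0.96), with 0.84, 0.68 and 0.58 without that library. For ASNS they were CYR61 (0.97), PLEKHH1 (0.96) and ANKZF1 (0.96), and these values were 0.94, 0.98 and 0.96 without it. Each r with HSPA5 and DDIT3 was at most 0.84 over the remaining libraries, and each with ASNS at least 0.94.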

How the data were processed

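RNA-seq of KHM-5M cells gave 9 libraries in 3 groups, mapped to groups by the labels. The authors aligned reads to GRCh38 with HISAT2 (2.0.5 per the submitters' processing notes). The notes name featureCounts 1.5.0-p3 and DESeq2 1.20.0, whereas the study's methods name another counter, 2 replicates per condition where 3 were deposited, and a stranded kit where the labels name a TruSeq kit without that word. Whether counting used strand is not given in the sources used here. The deposited counts are whole reads per gene without normalization. The deposited FPKM values were computed by the authors from counts, gene length and library size, and served for levels between genes and for one alternative. The deposited fold changes and p-values of the authors' own comparisons were not used.

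Counts were tested with edgeR 4.0.16 (R 4.3.3): filterByExpr with a minimum count of 10, TMM, glmQLFit and glmQLFTest on the groups compared, Benjamini-Hochberg adjustment over all genes tested, and a call at an adjusted p under 0.05. All 10 genes passed the filter in each comparison. CPM per library was scaled by TMM over all 9 libraries, so that a ratio of CPM means can differ slightly from a fitted fold change. Alternatives were DESeq2 1.42.0, other size factors, no filter, all 9 libraries in 1 fit, a replicate block, GC and length corrections, a 1.5-fold limit, unadjusted p, each library left out and limma 3.58.1 on log2(FPKM + 0.5). A fit without replicate 3 of 0.3 μM was added after seeing the data. The tests were checked on simulated data with seeded changes before use. Named list genes were, per list, up to 3 called at 1 μM with the largest change (mean of at least 1 CPM) and the most abundant in DMSO; other list genes named were chosen after their values were seen. The 10 genes and the lists were chosen with earlier results of these data known. Promoter windows came from RefSeq (GRCh38.p14), and Python 3.11.15 with pandas 2.3.3 and matplotlib 3.10.9 served for summaries and plots. Some marker genes are not reported here.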

Additional observations from a re-analysis of the deposited data

How the results depend on the processing

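ASNS kept its direction and its call at 1 μM against DMSO in every alternative run (edgeR, limma and DESeq2 adjusted p at most 0.00601). The count of the 10 genes called there was 1 in the fit on all 9 libraries (16.3% of all genes) and 1 with a 1.5-fold limit (858 of 15617 genes). It was 5 at an unadjusted p (31.9% of all genes), and 2 to 4 with 1 library left out (10.5% to 18.6%). DDIT3 then ranged from -0.37 to -0.15 and DDIT4 from -0.20 to -0.05, not called. HERPUD1 was called with the GC correction (edgeR adjusted p = 0.0290) and without DMSO replicate 1 (0.0357). At 0.3 μM the count was 3 with no filter on low counts (0.0926% of all genes) and 1 at an unadjusted p (3.77% of all genes), and 0 in all others. Between the doses it was 2 with DESeq2-type size factors (12.5% of all genes), in the fit on all 9 libraries (11.5%) and with the length correction (12.8%). It was 6 with no filter (7.05%) and 5 at an unadjusted p (27.6%). With 1 library left out it was 1 to 4 (5.92% to 11.8%), and 4 without 0.3 μM replicate 1 or 2. The 125 list genes gave 2 calls with a 1.5-fold limit (858 of 15617 over all genes) and 44 at an unadjusted p (31.9% of all genes). With 1 library left out they gave 14 to 27 (10.5% to 18.6% of all genes), and 14 without DMSO replicate 3. The cause of these shifts was not tested.

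Directions also turned. At 1 μM, HSPA5 was at 0.0026 with DESeq2, 0.0135 with no filter and 0.0035 with limma on log2(FPKM + 0.5), and -0.0407 to 0.0216 with 1 library left out, and CHAC1 at -0.13 to 0.0044. At 0.3 μM against DMSO, the fit on all libraries but replicate 3 gave -0.0870 for ATF4, -0.24 for DDIT3, -0.0419 for DDIT4, -0.62 for ASNS, -0.29 for CHAC1, -0.0600 for HSPA5, -0.20 for PPP1R15A and -0.14 for HERPUD1. With 1 library left out the ranges were -0.0871 to 0.11 for ATF4, -0.24 to 1.02 for DDIT3, -0.0420 to 0.59 for DDIT4, -0.62 to 0.36 for ASNS, -0.29 to 0.65 for CHAC1, -0.0601 to 0.43 for HSPA5, -0.20 to 0.31 for PPP1R15A and -0.14 to 0.40 for HERPUD1, the lowest each without replicate 3. Between the doses the fit without it gave 0.20 for TRIB3, 0.23 for CHAC1, 0.0536 for HSPA5, 0.0608 for XBP1 and 0.15 for PPP1R15A, and the ranges with 1 library left out were -0.32 to 0.20, -0.72 to 0.23, -0.43 to 0.0535, -0.23 to 0.0608 and -0.36 to 0.15.

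Same-numbered libraries deviated together weakly (r from -0.05 to 0.11, against -0.09 to 0.07 for different numbers). Between DMSO and 0.3 μM every same-numbered r (0.03 to 0.11) lay above every different-numbered r (-0.09 to 0.004). In the other pairs of groups the same-numbered and different-numbered r overlapped. The numbers were not taken to pair the samples in the main fits. With a replicate block the 10 genes had 3 calls at 1 μM (13.6% of all genes), 0 at 0.3 μM (0.00634%) and 5 between the doses (11.3%). The lists then had 17 calls at 1 μM, and ASNS at 0.3 μM was at -0.0539, or -0.0327 with the GC correction too. With 3 libraries a group, ASNS and CHAC1, under 10 CPM in DMSO, rest on the fewest counts.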

Other observations

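Outside the lists, the genes of at least 5 CPM on average that stood highest in replicate 3 of 0.3 μM over the other 8 libraries were looked at, after their values were seen and with no test. After DDIT3, CHAC1, ASNS and DDIT4 came SDCBP2 (11.3 CPM against 2.96 to 6.26 CPM elsewhere), NUAK2, a kinase of the AMPK family (34.3 against 17.9 to 20.5 CPM), HSPA5, and MYC, a growth-promoting transcription factor (206 against 110 to 127 CPM). Among the first 20 such genes 8 were members of the 10. GADD45A, a growth arrest gene, read 148 CPM against 82.1 to 103 CPM, and PER1, a clock gene, 85.6 CPM against 50.1 to 60.1 CPM. At the other end, CCNE2, a cyclin of the entry into S phase, read 5.58 CPM in that library against 10.5 to 13.7 CPM, and TXNIP, a regulator of glucose uptake, 33.3 CPM against 48.2 to 107 CPM.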
